A study of Mus musculus with 4 samples.

Results

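Transcription factor genes that set or maintain the macrophage lineage were followed in cultured mouse macrophages after an siRNA against Acly. The 8 genes were Spi1, Cebpa, Cebpb, Cebpd, Maf, Runx1, Zeb2 and Id2, taken as the rows of the deposited table whose Ensembl gene ID carries one of these symbols. All 8 were found among the 34745 gene IDs of the table, and all 8 passed the filter on low counts, as did 13108 genes in all. RNA was sequenced from 4 libraries of primary bone marrow-derived macrophages of C57BL/6 mice, that is, macrophages grown in culture from marrow progenitors. A first pair of libraries came from cells transfected with Acly-E14 siRNA and the second pair from cells transfected with control siRNA. Both groups had also been given lipopolysaccharide (LPS), the bacterial cell wall component that activates macrophages, so every level below is that of LPS-treated cells. The dose and duration of LPS, the age of the mice and the meaning of E14 are not stated in the labels. The labels also do not say whether replicate libraries derive from different mice or cultures.

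PU.1, the ETS-family protein encoded by Spi1, opens and occupies macrophage enhancers and is needed for macrophages to form at all. C/EBPα, C/EBPβ and C/EBPδ (Cebpa, Cebpb, Cebpd) are basic leucine zipper proteins that bind related sites and pair with one another. C/EBPα is best known for driving the step to granulocyte and monocyte progenitors, whereas C/EBPβ and C/EBPδ are best known for induction by LPS and cytokines. RUNX1 works upstream of PU.1 in blood development, c-MAF (Maf) restrains self-renewal of mature macrophages and drives Il10 and C1q genes, ZEB2 is a zinc finger repressor that maintains tissue macrophage identity, and ID2 is an inhibitor that binds E proteins and keeps them off DNA.

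Of the 8 factors, Cebpd was higher in Acly-E14 siRNA libraries, Cebpa, Spi1 and Maf were lower, and Cebpb, Runx1, Zeb2 and Id2 did not pass the test. The calls are those of edgeR's quasi-likelihood test with p-values adjusted by Benjamini-Hochberg over all tested genes and a threshold of 0.05. These 4 calls among 8 genes stand beside 33.2% of all tested genes called, 17.3% higher and 15.9% lower. Without control siRNA library 2 the number of factors that fell was 1, and without any other single library it was 2. The median log2 fold change of the 8 was -0.05, against 0.00 over all tested genes. The 2 changes beyond a log2 size of 1, those of Cebpa and Cebpd, were in opposite directions within one family. Changes of that size were called in 9.16% of tested genes, 7.49% higher and 1.67% lower.

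The 3 C/EBP genes are set side by side first because they gave the largest rise, the largest fall and one of the changes that did not pass among the 8 factors. Their coding sequences are alike where they encode the basic region that contacts DNA, so it matters whether reads could be assigned to one gene. The 60 coding bases below are from the GENCODE M21 transcripts, 5′ to 3′, with capitals for the bases identical in all 3 genes.
Cebpa, coding bases 874 to 933: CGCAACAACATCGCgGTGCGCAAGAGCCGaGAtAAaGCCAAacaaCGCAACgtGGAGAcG
Cebpb, coding bases 691 to 750: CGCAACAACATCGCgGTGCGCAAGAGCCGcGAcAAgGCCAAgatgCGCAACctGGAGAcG
Cebpd, coding bases 598 to 657: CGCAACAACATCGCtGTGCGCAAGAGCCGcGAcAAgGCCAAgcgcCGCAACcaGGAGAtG
In this window 49 of 60 bases were the same in all 3 genes, with 54 shared by Cebpb and Cebpd, 52 by Cebpa and Cebpb, and 50 by Cebpa and Cebpd. The longest identical run over the whole coding sequences was 29 bases for Cebpa and Cebpb, 27 for Cebpb and Cebpd, and 14 for Cebpa and Cebpd. No run of 50 bases was shared by any of these pairs.

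The promoters of Cebpa and Cebpb are shown because the first gene fell and the second did not pass the test. Each window holds the 250 bases before the gene's start, from RefSeq on GRCm38.p6, plus strand, 5′ to 3′, and capitals mark the one motif found among those searched.
Cebpa, chr7:35119043-35119292: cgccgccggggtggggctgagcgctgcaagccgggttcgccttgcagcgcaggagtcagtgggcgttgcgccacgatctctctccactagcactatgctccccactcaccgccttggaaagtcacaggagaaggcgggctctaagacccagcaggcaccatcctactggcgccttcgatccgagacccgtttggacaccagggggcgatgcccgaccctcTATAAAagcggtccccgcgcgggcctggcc
Cebpb, chr2:167688665-167688914: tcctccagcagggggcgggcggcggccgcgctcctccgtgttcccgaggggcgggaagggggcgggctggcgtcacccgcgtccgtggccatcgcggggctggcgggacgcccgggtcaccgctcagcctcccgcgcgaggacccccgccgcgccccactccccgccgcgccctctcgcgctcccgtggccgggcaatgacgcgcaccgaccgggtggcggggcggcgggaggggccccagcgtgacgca
The Cebpa window is 66.4% G and C and holds TATAAA, the TATA box letters, from 30 bases before the start. The Cebpb window is 81.6% G and C and holds none of the letters searched. Those were TTGCNNAA for C/EBP, GAGGAAGT for PU.1, TGTGGT for RUNX, CACCTG for ZEB, CCAAT and TATAAA, each on both strands. Over 32817 RefSeq promoter windows of 250 bases, TATAAA occurred in 12.4%, CCAAT in 33.8%, CACCTG in 17.2%, TGTGGT in 14%, TTGCNNAA in 9.57% and GAGGAAGT in 2.44%. Promoter entries were matched for 5 of the 8 factors, the others among them being Id2, Runx1 and Zeb2. The Id2 window holds CCAAT 3 times, both Runx1 windows hold it, one of them together with CACCTG on the opposite strand, and one Zeb2 window holds it together with TTGCNNAA. These matches describe letters in the windows and were not set against the changes.

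Sequencing depth was even, at 21323438 and 21086129 counts in Acly-E14 siRNA libraries and 21023197 and 21837806 in control siRNA libraries. Libraries of one group correlated at 0.991 and 0.990 in log2 CPM across genes, against 0.958 to 0.971 between groups. Acly itself, which encodes ATP citrate lyase, fell by 0.35 on the log2 scale (edgeR adjusted p = 0.0086, and 0.0583 without control siRNA library 1). Macrophage markers were abundant everywhere, with 17718 and 18119 CPM summed over 20 genes in Acly-E14 siRNA libraries and 19595 and 18183 CPM in control siRNA libraries. Of the 19 tested, 4 were higher and 8 lower, with a median log2 fold change of -0.19. Without control siRNA library 1 these were 2 and 4, and without library 2 of that group 2 and 5. In the list for fibroblasts and stroma, 12 of 15 markers rose and the other 3 also had positive log2 fold changes, with a median of 1.43, sums of 5125 and 6374 CPM against 2294 and 3307 CPM, and none at 0 in any library. Endothelial markers summed to 126 and 121 CPM against 306 and 293 CPM, with Emcn, Cldn5 and Erg at 0 in all 4 libraries. Mitochondrially encoded genes took 1.42% and 1.35% of counts against 1.82% and 1.87%. In bulk RNA, fewer cells of a type and less RNA per cell cannot be told apart, for these lists and for the factors alike.

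**Figure D1:**
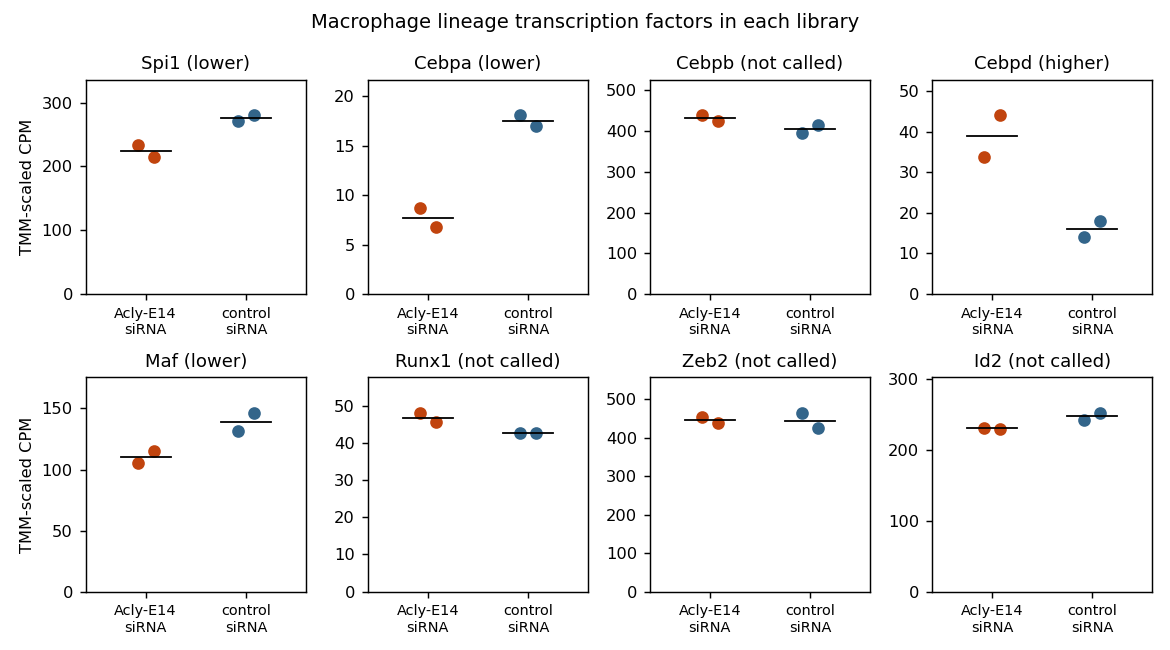
TMM-scaled CPM (vertical axes from 0) of the 8 factors in each library, with Acly-E14 siRNA (orange) left of control siRNA (blue); points are libraries, black lines are means over 2 libraries, and each title gives the call. Cebpa and Cebpd show the widest gaps between the groups relative to their level, and only for Zeb2 do the points of the groups overlap.

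Among the C/EBP genes, Cebpa fell the most. The gene lies on chromosome 7 from 35119293 to 35121928 on the plus strand (mm10). It had 8.69 and 6.76 CPM in Acly-E14 siRNA libraries and 18.1 and 17.0 CPM in control siRNA libraries, where CPM is the count relative to the library total, scaled by trimmed-mean (TMM) factors. Both treated libraries lay well below both controls, and the groups did not overlap. The means were 7.73 ± 1.37 CPM and 17.5 ± 0.780 CPM (SD, n = 2 each). The treated level was 44.1% of the control level (log2 -1.18, SE 0.148, edgeR adjusted p = 0.00358). Behind these values stood 190 and 148 counts in the treated libraries and 364 and 363 in the controls, the fewest of the 8 factors in each treated library. A larger change in size was seen in 8.67% of tested genes.

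Cebpd moved the other way. It lies on chromosome 16 from 15887286 to 15891031 on the plus strand. Its level was 33.7 and 44.0 CPM in Acly-E14 siRNA libraries, against 14.1 and 18.1 CPM in control siRNA libraries. The lower treated library was still above the higher control. The means were 38.8 ± 7.29 CPM and 16.1 ± 2.86 CPM, a 2.41-fold rise (log2 1.27, SE 0.176, edgeR adjusted p = 0.00468). A larger change in size was seen in 7.32% of tested genes. In each group Cebpd was higher in replicate 2 than in replicate 1, as was the summed level of the fibroblast and stroma markers, 5125 and 6374 CPM in the treated libraries and 2294 and 3307 CPM in the controls. Whether cells that express these markers contributed to the Cebpd value was not tested.

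Cebpb, the most abundant of the 3, was close to level. On chromosome 2 from 167688915 to 167690418, it had 438 and 425 CPM in Acly-E14 siRNA libraries and 396 and 415 CPM in control siRNA libraries. The groups did not overlap, but the gap was small. The means of 432 ± 9.31 and 405 ± 13.1 CPM gave a log2 fold change of 0.09 (SE 0.054, edgeR adjusted p = 0.247). With library totals in place of TMM factors the value was 0.18 (adjusted p = 0.0466), so this gene's call depends on the scaling. The same change of scaling put 65.8% of all calls on the higher side, against 52.0% with TMM factors, and moved the median of all genes by 0.09.

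Ratios within a library do not depend on that scaling. Per unit of length (FPKM, which divides the count by gene length and library total), Cebpa stood at 0.00623 and 0.00500 of Cebpb in Acly-E14 siRNA libraries and at 0.0143 and 0.0129 in control siRNA libraries, a log2 difference of -1.28. The ratio of Cebpd to Cebpb was 0.0980 and 0.132 in Acly-E14 siRNA libraries and 0.0452 and 0.0556 in control siRNA libraries, 2.27-fold higher. The ratio of Cebpa to Spi1 was 0.0258 and 0.0217 against 0.0460 and 0.0419 in control siRNA libraries, a log2 difference of -0.89. None of the 3 ratios overlapped between the groups. An exact two-sided permutation test gave p = 0.333 for each, the smallest that 2 libraries against 2 can give. The ratio of Cebpd to Cebpa, chosen after its values were seen, was 15.7 and 26.4 in Acly-E14 siRNA libraries and 3.15 and 4.32 in control siRNA libraries. As levels these ratios depend on the gene lengths, while their log2 differences between groups do not. With GENCODE M21 lengths the ratio of Cebpd to Cebpa was 2.73 and 4.58 in Acly-E14 siRNA libraries and 0.547 and 0.750 in control siRNA libraries, so Cebpd stood below Cebpa in the controls.

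The wider C/EBP family was small. Cebpg, a short family member without an activation domain, fell by 0.33 on the log2 scale (edgeR adjusted p = 0.0132). It had 71.3 and 67.7 CPM in Acly-E14 siRNA libraries and 90.2 and 84.8 CPM in control siRNA libraries. The Cebpg call was lost without Acly-E14 siRNA library 2 (log2 -0.30) and without control siRNA library 1 (log2 -0.29). Ddit3, which encodes the stress factor CHOP, had a log2 fold change of -0.24 and did not pass (adjusted p = 0.069). Cebpe, the granulocyte member, had too few counts to test.

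By share of the summed FPKM of the tested C/EBP genes other than Ddit3, Cebpa made up 0.488% ± 0.085 in Acly-E14 siRNA libraries and 1.23% ± 0.098 in control siRNA libraries (SD, n = 2 each). Cebpd made up 9.96% ± 1.89 and 4.56% ± 0.652, and Cebpb 86.8% ± 1.71 and 90.4% ± 0.251. Cebpb was thus the main family transcript in all 4 libraries. With exon lengths from GENCODE M21, a choice made after the data were seen, Cebpd made up 3.32% and 1.45% and Cebpa 0.936% and 2.25%. With those lengths the Cebpb share turned round, to 91.8% in Acly-E14 siRNA libraries and 91.0% in control siRNA libraries.

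**Figure D2:**
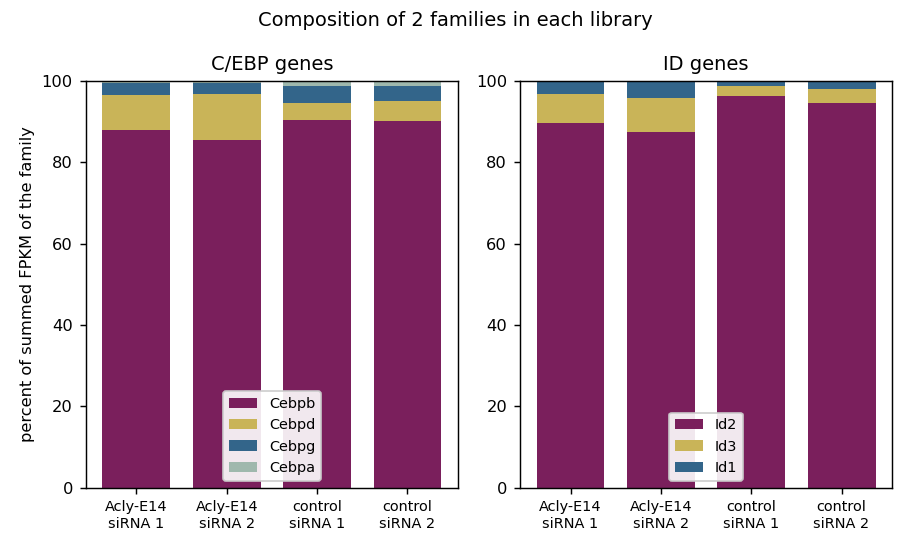
Share of each gene in the summed FPKM of its family (vertical axis, percent, with the lengths behind the deposited FPKM) in each library, Acly-E14 siRNA left of control siRNA; the panels are the C/EBP genes and the ID genes. Cebpd, Id1 and Id3 take larger shares in both Acly-E14 siRNA libraries than in either control, and the mean Cebpd share was 9.96%, against 4.56% in controls.

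Spi1 was modestly lower. It lies on chromosome 2 from 91082390 to 91115756 on the plus strand and had 233.0 and 214.9 CPM in Acly-E14 siRNA libraries, against 271.3 and 279.9 CPM in control siRNA libraries. Both treated libraries were below both controls. The means were 224 ± 12.8 and 276 ± 6.09 CPM, so the treated level was 81.3% of the control level (log2 -0.30, SE 0.061, edgeR adjusted p = 0.0152). A larger change in size was seen in 48.8% of tested genes. The call was lost without Acly-E14 siRNA library 2 (adjusted p = 0.0758), without control siRNA library 1 (0.0673) and without control siRNA library 2 (0.0772).

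PU.1 belongs to the large ETS family, and of the 9 relatives tested 3 were higher, 3 lower and 3 not called. Spib, the closest relative and mainly a B cell and plasmacytoid cell gene, was very low, with 1.69 and 1.37 CPM in Acly-E14 siRNA libraries and 0.447 and 0.234 CPM in control siRNA libraries. It rose by the edgeR test (log2 2.16, adjusted p = 0.0127) and made up 0.681% of the summed Spi1 and Spib FPKM in Acly-E14 siRNA libraries and 0.125% in control siRNA libraries. Ets1, an ETS factor known from lymphocytes, endothelium and stroma, rose with a log2 fold change of 1.02, and Etv3, a repressor induced by IL-10, with 0.44. Elf1 (log2 -0.43), Elf4 (-0.24) and Gabpa (-0.27) fell, while Ets2, Fli1 and Etv6 did not pass. Among these relatives, Elf1 and Etv3 kept their call under every alternative run. The Gabpa call was lost whichever library was left out (log2 -0.34 to -0.19). Spib, Ets1 and Elf4 lost theirs under some alternatives.

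Maf was lower by about as much as Spi1. Located on chromosome 8 (minus strand, 115682942 to 115707794), it had 105 and 115 CPM in Acly-E14 siRNA libraries and 131 and 146 CPM in control siRNA libraries. The groups did not overlap. The means of 110 ± 6.91 and 139 ± 10.6 CPM gave 79.3% of the control level (log2 -0.33, SE 0.079, edgeR adjusted p = 0.0237). This call was the least stable of the 4. It was lost without Acly-E14 siRNA library 1 (adjusted p = 0.103), without control siRNA library 2 (0.101), without the filter on low counts (0.0507), with library totals (0.0817) and with limma on log2(FPKM + 1) (0.110).

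The small MAF proteins lack an activation domain and act through their partners. Of their genes, Mafg (log2 -0.25) and Mafk (-0.43) fell by the edgeR test, and Maff did not pass. Mafg had 85.2 and 79.7 CPM in Acly-E14 siRNA libraries, against 98.3 CPM in both control siRNA libraries. The Mafg call was lost with library totals (edgeR adjusted p = 0.0793) and with limma (0.104). It was also lost whichever library was left out (log2 -0.30 to -0.21). Mafk had 304 and 271 CPM in Acly-E14 siRNA libraries and 408 and 369 CPM in control siRNA libraries. The Mafk call was lost without control siRNA library 1 (log2 -0.37).

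Runx1 and Zeb2 were close to level. Runx1 (chromosome 16, minus strand, 92601466 to 92826149) had 48.0 and 45.4 CPM in Acly-E14 siRNA libraries and 42.6 and 42.7 CPM in control siRNA libraries. The groups did not overlap, but the log2 fold change of 0.13 (SE 0.070) missed the threshold (edgeR adjusted p = 0.202). Cbfb, which encodes the partner that RUNX proteins need for stable DNA binding, fell by 0.24 on the log2 scale (edgeR adjusted p = 0.0350). The Cbfb call was lost with library totals (0.157), without the filter on low counts (0.0634) and with limma (0.180). It was also lost whichever library was left out (log2 -0.28 to -0.20). Runx2 and Runx3, best known from bone and from lymphocytes, had log2 fold changes of 0.30 and 0.43 and were not called. Zeb2 (chromosome 2, minus strand, 44983632 to 45117395) had 454 and 438 CPM in Acly-E14 siRNA libraries and 464 and 425 CPM in control siRNA libraries. It was the one factor whose groups overlapped, with a log2 fold change of 0.01 (SE 0.063, edgeR adjusted p = 0.958). Zeb1, its relative in epithelial and stromal cells, had a log2 fold change of 0.47 and did not pass (adjusted p = 0.0598).

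Id2 (chromosome 12, minus strand, 25093799 to 25097140) had 230.8 and 229.8 CPM in Acly-E14 siRNA libraries and 242 and 252 CPM in control siRNA libraries. The groups did not overlap in TMM-scaled CPM. In FPKM, which use library totals, they did (186 and 188 against 183 and 194 in control siRNA libraries). The log2 fold change of Id2 was only -0.10 (SE 0.052, edgeR adjusted p = 0.187). Its relatives did move. Id3 had 32.3 and 40.1 CPM in Acly-E14 siRNA libraries and 11.3 and 17.1 CPM in control siRNA libraries, a log2 rise of 1.35 (edgeR adjusted p = 0.0069). Id1 had 13.9 and 17.8 CPM in Acly-E14 siRNA libraries and 5.46 and 8.47 CPM in control siRNA libraries, a log2 rise of 1.18 (adjusted p = 0.0133). The Id1 call was lost without Acly-E14 siRNA library 2 (log2 0.99) and without control siRNA library 1 (log2 0.90). Id1 and Id3 were both higher in replicate 2 than in replicate 1 of each group, as were Cebpd and the summed fibroblast and stroma markers. Whether cells that express these markers contributed to the Id1 and Id3 values was not tested. The Id2 share of the summed ID FPKM was 89.8% and 87.4% in Acly-E14 siRNA libraries and 96.2% and 94.5% in control siRNA libraries. With GENCODE M21 lengths it was 75.9% and 71.4% in Acly-E14 siRNA libraries and 90.0% and 86.0% in control siRNA libraries. Of the E proteins that ID proteins bind, Tcf12 rose (log2 0.58), Tcf4 fell (-0.38) and Tcf3 did not pass. The Tcf4 call was lost without the filter on low counts (edgeR adjusted p = 0.0527) and with limma (0.153). It was also lost without Acly-E14 siRNA library 2 (log2 -0.28) and without control siRNA library 1 (log2 -0.31).

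**Figure D3:**
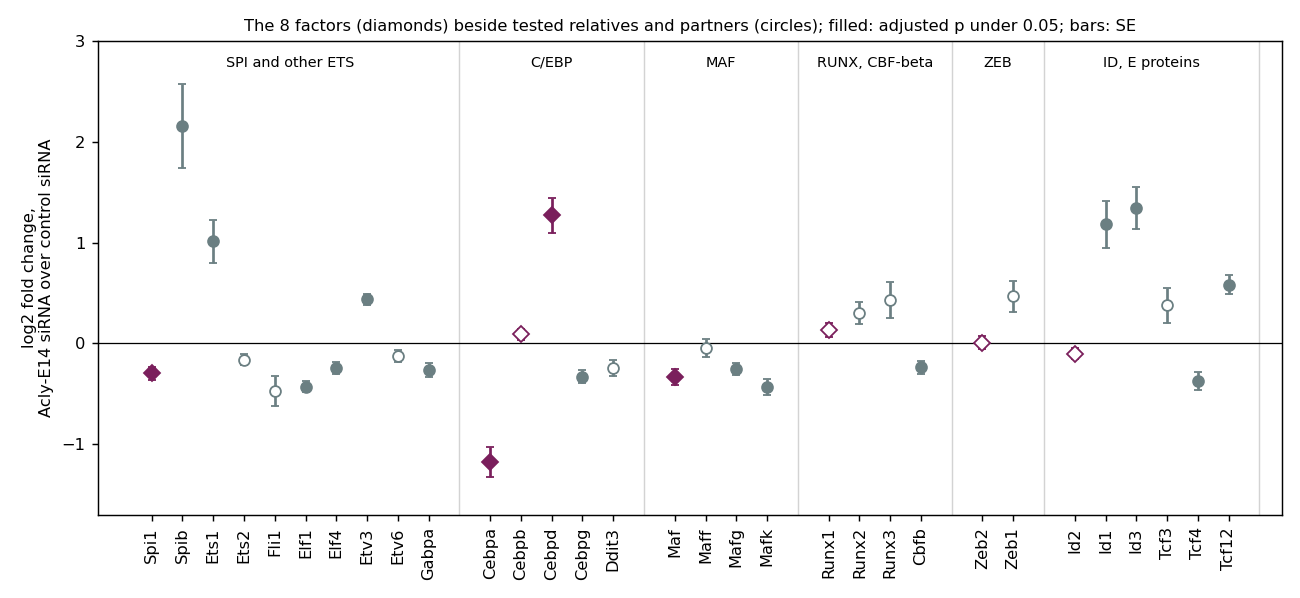
Log2 fold change of Acly-E14 siRNA over control siRNA (vertical axis) of the 8 factors (diamonds) and their 23 tested relatives and partners (circles), ordered by family; bars are SE, and filled symbols passed the edgeR test at an adjusted p under 0.05. Cebpa at -1.18 and Cebpd at 1.27 lie on opposite sides of 0, and Id1 and Id3 lie above 1 while Id2 is at -0.10.

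Over 30 listed relatives and partners, 23 were tested, 6 rose, 8 fell and 9 were not called, with a median log2 fold change of -0.13. Of the 14 called, Elf1, Etv3, Id3 and Tcf12 kept their call under every alternative run. Without control siRNA library 1, 5 relatives rose and 1 fell, and without Acly-E14 siRNA library 2, 3 rose and 2 fell. Without control siRNA library 2, 5 rose and 5 fell. With library totals 7 rose and 4 fell. In TMM-scaled CPM the groups did not overlap for 7 of the 8 factors, 3 of them higher and 4 lower. The share was 70.6% over all tested genes, 35.3% in each direction, so lack of overlap alone says little here. Cebpa and Cebpd kept their call under every alternative, with log2 values of -1.37 to -1.01 for Cebpa and 1.06 to 1.46 for Cebpd when 1 library was left out.

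**Figure D4:**
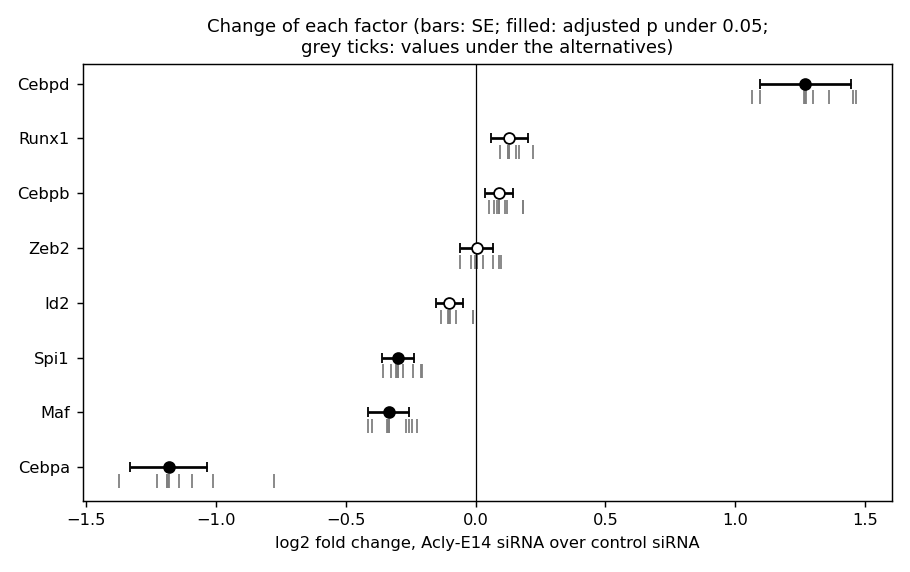
Log2 fold change of Acly-E14 siRNA over control siRNA (horizontal axis) for each of the 8 factors, with SE bars; filled points passed the edgeR test at an adjusted p under 0.05, and grey ticks below each point are the values under the alternatives. All ticks of Cebpd lie right of 0 and all of Cebpa, Maf, Spi1 and Id2 left of it, while those of Zeb2 fall on both sides.

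Levels can be ranked between genes only per unit of length. With the lengths behind the deposited FPKM, the order in Acly-E14 siRNA libraries was Cebpb (mean 296 FPKM), Id2 (187), Spi1 (69.9), Cebpd (34.0), Zeb2 (13.5), Maf (11.8), Runx1 (2.64) and Cebpa (1.66). No neighbours in that order overlapped. In control siRNA libraries it was Cebpb (261 FPKM), Id2 (188), Spi1 (80.8), then Maf, Cebpd and Zeb2, whose libraries overlapped between 11.4 and 15.0 FPKM, and last Cebpa (3.54) and Runx1 (2.27). Cebpa was thus the lowest of the 8 in the treated libraries and stood above Runx1 in the controls. Those lengths differ from the annotation for several factors, such as 1180 bases for Cebpd against 3746 bases of merged exons in GENCODE M21. With the GENCODE M21 lengths the order in Acly-E14 siRNA libraries was Cebpb (296 FPKM), Id2 (97.5), Spi1 (85.7), Zeb2 (23.1), Maf (13.8), Cebpd (10.7), Runx1 (4.01) and Cebpa (3.02), again with no overlap of neighbours. In control siRNA libraries it was Cebpb (261 FPKM), Spi1 (99.0) and Id2 (98.1), which overlapped, then Zeb2 (21.6), Maf (16.3), Cebpa (6.44), Cebpd (4.16) and Runx1 (3.44). Cebpb was first in both groups under both lengths. In the treated libraries Id2, Spi1, Runx1 and Cebpa also kept their places, with Cebpa below Runx1, whereas those of Zeb2, Maf and Cebpd depended on the length used. In control siRNA libraries only Cebpb and Runx1 kept their places under both lengths.

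Several factors share exon bases in GENCODE M21 with a gene on the opposite strand, and the sources used here do not say whether counting was by strand. They also do not give the exons that were counted. For Cebpd, with a length of 1180 bases behind the FPKM against 3746 in GENCODE M21, the shared bases may lie outside those exons. Cebpd shares 562 bases with Spidr, which had 388 and 445 counts in Acly-E14 siRNA libraries and 300 and 351 in control siRNA libraries and was not called (log2 0.28, edgeR adjusted p = 0.111). Cebpb shares 312 bases with Tmem189, which fell (log2 -0.47). Zeb2 shares 653 bases with Zeb2os, which was not called, and Maf 440 bases with Gm15655, which had no counts. Cebpa shares 51 bases with Gm45091, also without counts, and Runx1 106 bases with Gm26626, which had at most 3 counts in a library. Among the other genes named, Folr2 (975 bases), Csf1r (873), Dusp5 (547), Runx2 (519), Wsb2 (499), Gabpa (397), Elf1 (327), Cd9 (218), Zeb1 (198), Mafk (169), Etv6 (135), Ddit3 (68) and Il1b (25) share exon bases with an opposite-strand gene, and Mafg (124) and Cebpg (73) with one on their own strand.

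Genes linked to these factors moved in both directions. Of 21 genes linked to PU.1, 6 rose, 8 fell and 7 were not called, with a median log2 fold change of -0.10 against 0.00 over all tested genes. The 4 of smallest p were Itgb2, the β2 integrin chain (log2 -1.44), the LPS co-receptor Cd14 (1.03), the cytokine gene Il1b (1.14) and the lysosomal marker Cd68 (-0.68). Itgb2 had 535 and 501 CPM in Acly-E14 siRNA libraries and 1442 and 1365 CPM in control siRNA libraries. Csf1r, the receptor for macrophage colony-stimulating factor and a classical PU.1 target, was named after its values were seen and fell by 0.38 on the log2 scale. Its call was lost without Acly-E14 siRNA library 2 (edgeR adjusted p = 0.0545) and without control siRNA library 1 (0.0668). Without control siRNA library 1, 3 genes of this list rose and 2 fell, and without Acly-E14 siRNA library 2, 4 rose and 3 fell. Without control siRNA library 2, 4 rose and 5 fell.

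Of 14 tested genes linked to C/EBP factors, 6 rose, 3 fell and 5 were not called, with a median of 0.14. Those of smallest p were Cd14, the lipid chaperone gene Fabp4 (log2 -1.29), the cytokine gene Il6 (-0.74) and the complement gene C3 (0.47). Il6, a textbook target of C/EBPβ and C/EBPδ, had 337 and 314 CPM in Acly-E14 siRNA libraries and 536 and 549 CPM in control siRNA libraries. Whether the changes of these genes are linked to those of the C/EBP factors was not tested. Of 8 tested genes linked to c-MAF, 1 rose, 4 fell and 3 were not called, with a median of -0.14. The 1 that rose was the folate receptor gene Folr2, and its call was lost whichever library was left out (edgeR adjusted p from 0.0559 to 0.0926). The 4 that fell were the mannose receptor gene Mrc1 (log2 -0.63) and the complement genes C1qa (-0.70), C1qb (-0.35) and C1qc (-0.32). The C1qb call was lost without Acly-E14 siRNA library 1 (edgeR adjusted p = 0.0592), without control siRNA library 2 (0.0678) and with limma (0.0563), and the C1qc call without control siRNA library 1 (0.0626). Il10, another gene linked to c-MAF, was at 0.05 and not called (edgeR adjusted p = 0.625), a gene named after its values were seen.

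**Figure D5:**
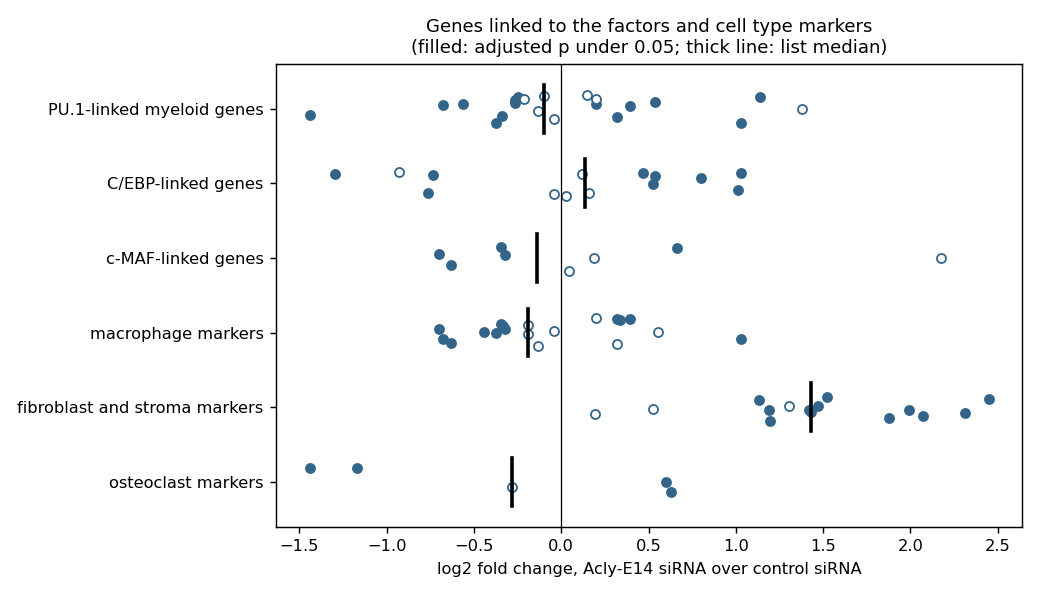
Log2 fold change of Acly-E14 siRNA over control siRNA (horizontal axis) of each tested gene in lists linked to PU.1, C/EBP and c-MAF and in 3 marker lists; filled points passed the edgeR test at an adjusted p under 0.05, and thick lines are list medians. The linked lists spread to both sides of 0 with medians between -0.14 and 0.14, whereas all 15 fibroblast and stroma markers lie right of 0.

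Among 7520 tested genes with a mean of at least 10 CPM, those whose log2 CPM pattern over the 4 libraries lay nearest to each called factor were as follows. Nearest to Spi1 were Csnk2a2, a casein kinase subunit, Wsb2 and the tetraspanin gene Cd9, with log2 fold changes of -0.30, -0.31 and -0.30. Nearest to Cebpa were Ap1s3, an adaptor subunit of coated vesicles, the protease gene Prss46 and Stxbp3, a regulator of vesicle fusion, at -1.22, -1.12 and -1.07. Near to Cebpd lay Aldh1a2, which encodes an enzyme of retinoic acid synthesis, and the prolyl isomerase gene Fkbp9, at 1.304 and 1.28. Nearest to Maf were the lipid kinase gene Agk, C1qb and the phosphatase gene Dusp5, at -0.36, -0.35 and -0.37. The measure was the Euclidean distance of the centred values, and with 4 libraries it reads mainly the size of the group difference and the gaps between replicates.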

How the data were processed

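The deposited table holds, per the file headers, whole-number counts per gene without normalization, and FPKM values that the authors derived from them. The gene length was inferred for each gene from these FPKM values and the counts, as the median over the FPKM columns used. FPKM recomputed from the inferred length equalled 49103 of 49103 values within a relative tolerance of 0.001. As the length came from the same values, the match shows only that the same length per gene served these columns. Of 14315 genes whose 2 annotated lengths differ, the inferred length equalled the summed transcripts in 902 and the merged exons in 107. Levels between genes are therefore given with the inferred and the merged exon lengths. HISAT2, StringTie 1.3.0 and edgeR with mm10 are named in the submitters' processing notes. Their roles and the use of strand were not stated. Per the labels' protocols, a stranded total RNA kit and mRNA capture beads are both named. An FPKM column whose header gives no replicate (1 in all) was left unused. The FPKM of Acly-E14 siRNA library 2 were therefore computed here from its counts and the inferred lengths. Symbols matched 34267 IDs.

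Counts were tested with edgeR 4.0.16 (R 4.3.3): filterByExpr with a minimum count of 10, TMM factors and the quasi-likelihood F test without covariates, Benjamini-Hochberg adjusted over 13108 genes. SE is that implied by the F statistic. The p-values reflect the spread of these libraries alone, and that spread may be technical. Alternatives were each library left out, a replicate block, DESeq2's size factors, the DESeq2 1.42.0 Wald test, no filter, library totals, limma 3.58.1 on log2(FPKM + 1) and an adjusted p under 0.1. The same alternatives for genes and lists beyond the 8 factors, and the GENCODE M21 lengths, were chosen after seeing the data. The fit was first checked on simulated counts. The 8 factors and the lists were chosen with earlier results of these data known. Named genes are the 8 factors, Acly, their relatives, the 4 of smallest p in each linked list, and the 3 tested genes nearest in pattern to each called factor, leaving out predicted genes and pseudogenes. Some genes that meet this rule are not reported here. Replicates differed by more than sampling noise (chi-square per degree of freedom 11.0 and 9.52).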

Additional observations from a re-analysis of the deposited data

How the results depend on the processing

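Cebpa, Cebpd, Runx1 and Id2 kept their direction and their side of the threshold under all 11 alternatives run. Spi1 lost its call under 3 of them and Maf under 5 (adjusted p above). Zeb2 changed sign without Acly-E14 siRNA library 1 and without control siRNA library 2, with log2 values from -0.059 to 0.066 when a library was left out, and without the filter (-0.0015). Cebpb was called with library totals and with limma (adjusted p = 0.0466 and 0.0495). The number of factors higher was 2 instead of 1 with library totals and with limma, and 1 in every leave-one-out fit. The number lower was 3 with all libraries and 1 to 2 when a library was left out. Acly ranged from -0.40 to -0.30 in log2 when a library was left out. Genes called higher ranged from 1045 to 1815 in those fits, against 2264 with all libraries, and genes lower from 982 to 1400, against 2090. With limma, 1389 genes were lower. The ratios were recomputed only from raw counts and with each library left out. Gene lengths cancel in the log2 differences, so raw counts had to give the same values. As the groups did not overlap, leaving out a library could not change the direction. The leave-one-out log2 differences were -1.44 to -1.12 for Cebpa to Cebpb, 0.97 to 1.39 for Cebpd to Cebpb and -1.02 to -0.77 for Cebpa to Spi1. Among the relatives, the number lower ranged from 1 to 11 and the number higher from 3 to 7, and Maff, which ranged from -0.127 to 0.034 when a library was left out, also changed sign with library totals (0.047) and with limma (0.045). The causes were not tested. The labels do not say whether equal replicate numbers mark a shared culture or day, and the 2 pairs here do not settle it (r = 0.144 between the groups' replicate differences over 13108 genes). With a replicate block 1 factor was higher and 3 lower, as without it, and 2514 genes were higher and 2382 lower. With 2 libraries a group and as few as 148 counts for Cebpa, depth and number both limit the precision.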

Other observations

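Other transcription factors of the blood lineages were tested in the same fit. Of 29 listed genes 22 were tested, 3 rose, 9 fell and 10 were not called, with a median log2 fold change of -0.28. Without Acly-E14 siRNA library 2 or control siRNA library 1, 1 rose and 5 fell. The 4 of smallest p all fell. Lmo2, an adaptor of haematopoietic transcription complexes, had 70.6 and 65.0 CPM in Acly-E14 siRNA libraries and 187 and 194 CPM in control siRNA libraries (log2 -1.49, edgeR adjusted p = 0.00058). Bhlhe41, a repressor known from alveolar macrophages, had 81.2 and 69.0 CPM in Acly-E14 siRNA libraries and 243 and 229 CPM in control siRNA libraries (log2 -1.65). Its relative Bhlhe40 fell less (log2 -0.59). Bcl6, a repressor of inflammatory genes, had 37.2 and 39.4 CPM in Acly-E14 siRNA libraries, against 91.2 and 99.9 CPM in control siRNA libraries (log2 -1.32). All 4 genes kept their call under every alternative run. Bhlhe41 shares 1280 exon bases with an opposite-strand gene, Gm43909, Bhlhe40 shares 118 with another, and Bcl6 shares 21 with Gm37419.

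Markers of further cell types were summed in each library. Neutrophil markers summed to 144 and 145 CPM in Acly-E14 siRNA libraries and 98.1 and 106 CPM in control siRNA libraries, and 4 of 12 could be tested. In this list Ngp was at 0 in all 4 libraries, and Ly6g, Mpo, Elane and Retnlg were at 0 in both Acly-E14 siRNA libraries. Dendritic cell markers summed to 727 and 733 CPM against 790 and 763 CPM in controls, and none of the 5 tested was called. Siglech was at 0 in all 4 libraries, and Flt3, Xcr1, Clec9a and Cd209a were at 0 in both Acly-E14 siRNA libraries. Mast cell and basophil markers summed to 93.2 and 94.6 CPM against 66.1 and 74.0 CPM in controls. Fcer1a and Ms4a2 were at 0 in all 4 libraries, and of the 3 tested genes of this list 1 was higher and 1 lower. Osteoclast markers summed to 946 and 908 CPM against 1150 and 1108 CPM in controls, with 2 of 5 tested genes higher and 2 lower. B cell, T and NK cell, and erythroid and megakaryocyte markers each summed to under 10 CPM in every library. In the last of these lists all 5 tested genes were called, in both directions. The globin genes Hbb-bs, Hba-a1 and Hba-a2, named after their values were seen, fell. Hbb-bs had 0 and 1 counts in Acly-E14 siRNA libraries and 42 and 43 counts in control siRNA libraries, and Hba-a1 had 0 in both Acly-E14 siRNA libraries and 13 and 17 in control siRNA libraries. Pf4, a platelet chemokine gene that macrophages can also express, had 134 and 124 counts in Acly-E14 siRNA libraries and 74 and 77 counts in control siRNA libraries, and Itga2b, which encodes a platelet integrin chain, rose too.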
